A study of Mus musculus with 9 samples.

Results

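Genes of the nucleolus that make ribosomes were followed in mouse immature erythroid cells from which Trim28, the gene of a transcriptional corepressor, had been deleted. The set holds 39 genes of the 23285 in the authors' table of differential expression. They were chosen by symbol for RNA polymerase I, pre-rRNA processing and ribosome assembly, with earlier results of these data known. All 39 were listed, and all 39 had a completed test in each of the 3 comparisons, so none was lost to a filter on low values.

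Ribosomes are built in the nucleolus, where RNA polymerase I transcribes a long precursor of the ribosomal RNAs. Small nucleolar ribonucleoproteins (snoRNPs) guide the chemical marking of that precursor, a large processome trims it into the RNA of the small subunit, and a separate chain of assembly factors matures the large subunit. Early erythroblasts have prominent nucleoli and make many ribosomes for globin synthesis, and nucleoli shrink as the cells mature.

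The cells came from bone marrow of C57BL/6 mice and were sequenced in 9 libraries, 3 for each group. The control group, FFa, was TRIM28(flox/flox) without Cre and was sorted as CD71(hi)TER119+. KOa was TRIM28(flox/flox):Mx1Cre sorted through that same gate, and KOb was TRIM28(flox/flox):Mx1Cre sorted as CD71(hi)TER119-. Transferrin receptor (CD71) is abundant on immature erythroid cells, and TER119 appears on their surface as they mature. Mx1Cre is a recombinase under an interferon-responsive promoter that is active in many blood cells and other tissues, and it was induced with 5 poly(I:C) injections 2 weeks before analysis. The labels describe KOa as modestly and KOb as severely deleted, with 5 to 8% and 1 to 4% of the gene left. Every group carries the floxed alleles, and neither age nor treatment of the control mice with poly(I:C) is given in the sources used here. The degree of deletion, the sort gate and, against FFa, the presence of Cre cannot be told apart in KOb. Nothing in the labels ties single libraries to separate mice, so the p-values may measure technical spread only.

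Values are FPKM, fragments normalised to transcript length and sequencing depth, with 1 value per gene and group in the authors' deposited table. The depth of each library is unknown, no value has an SD, and the direction in single libraries cannot be counted. A log2 ratio is that of the group FPKM values, and the error after ± is the standard error implied by the deposited test statistic. A gene is called, and said to have risen or fallen, where the deposited q is below 0.05. The smallest deposited p, 5e-05, corresponds to a q of 0.000619, and many genes share it.

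Trim28 itself was at 26.0 FPKM in FFa, 6.64 in KOa and 4.76 in KOb, which is 25.5% and 18.3% of the control. Its log2 ratio of KOb to KOa was -0.48 ± 0.32 and was not called (q = 0.0535 in the authors' deposited Cuffdiff test). The erythroid markers Gata1 (118, 138 and 105 FPKM in FFa, KOa and KOb), Klf1 (79.2, 80.6 and 62.0) and Tfrc, the CD71 gene (81.4, 62.5 and 61.8), were high in every group. Late maturation genes were lower in KOb, with 18 of 22 falling and 1 rising against FFa, and their summed FPKM went from 8296 in FFa to 6148 in KOa and 4312 in KOb. In KOa 7 of the 22 fell and 2 rose against FFa. Most leukocyte markers were lower in the mutant groups, with exceptions. Of 15 granulocyte markers 2 rose and 7 fell in KOa, and 2 rose and 9 fell in KOb, and of 14 B cell markers 13 and 14 fell. Of all tested genes, 7.99% rose and 14.1% fell in KOa, and 12.8% rose and 15.2% fell in KOb. The granulocyte risers were Mpo (8.15, 21.7 and 27.3 FPKM in FFa, KOa and KOb) and Ctsg (3.35, 15.9 and 20.2), and Nkg7 of the T and NK cell list also rose in both (3.93, 9.16 and 10.2). The summed FPKM of 15 granulocyte markers was 49314, 16833 and 13663 in FFa, KOa and KOb, mostly from S100a8 (34935, 14822 and 12078), and that of 14 B cell markers was 269, 26.6 and 24.5. In bulk samples, fewer cells of a type and less RNA per cell cannot be told apart. Globin genes made up 64.6%, 76.3% and 53.3% of the summed FPKM of FFa, KOa and KOb.

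In the deposited FPKM, the nucleolar genes were raised in KOb and stood at control level, on balance, in KOa. Their summed FPKM was 279 in FFa, 292 in KOa and 548 in KOb, which is 1.05 times the control in KOa and 1.96 times in KOb. The median member was at 3.22 FPKM in FFa, 2.88 in KOa and 5.84 in KOb. KOb was the highest of the 3 groups in 38 of the 39 genes. The exception was Imp3, highest in KOa by a margin within its error. FFa was the lowest group in 18 genes and KOa in 21, so the control and KOa were not ordered. Genes under 1 FPKM numbered 10 in FFa, 12 in KOa and 2 in KOb.

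**Figure D1:**
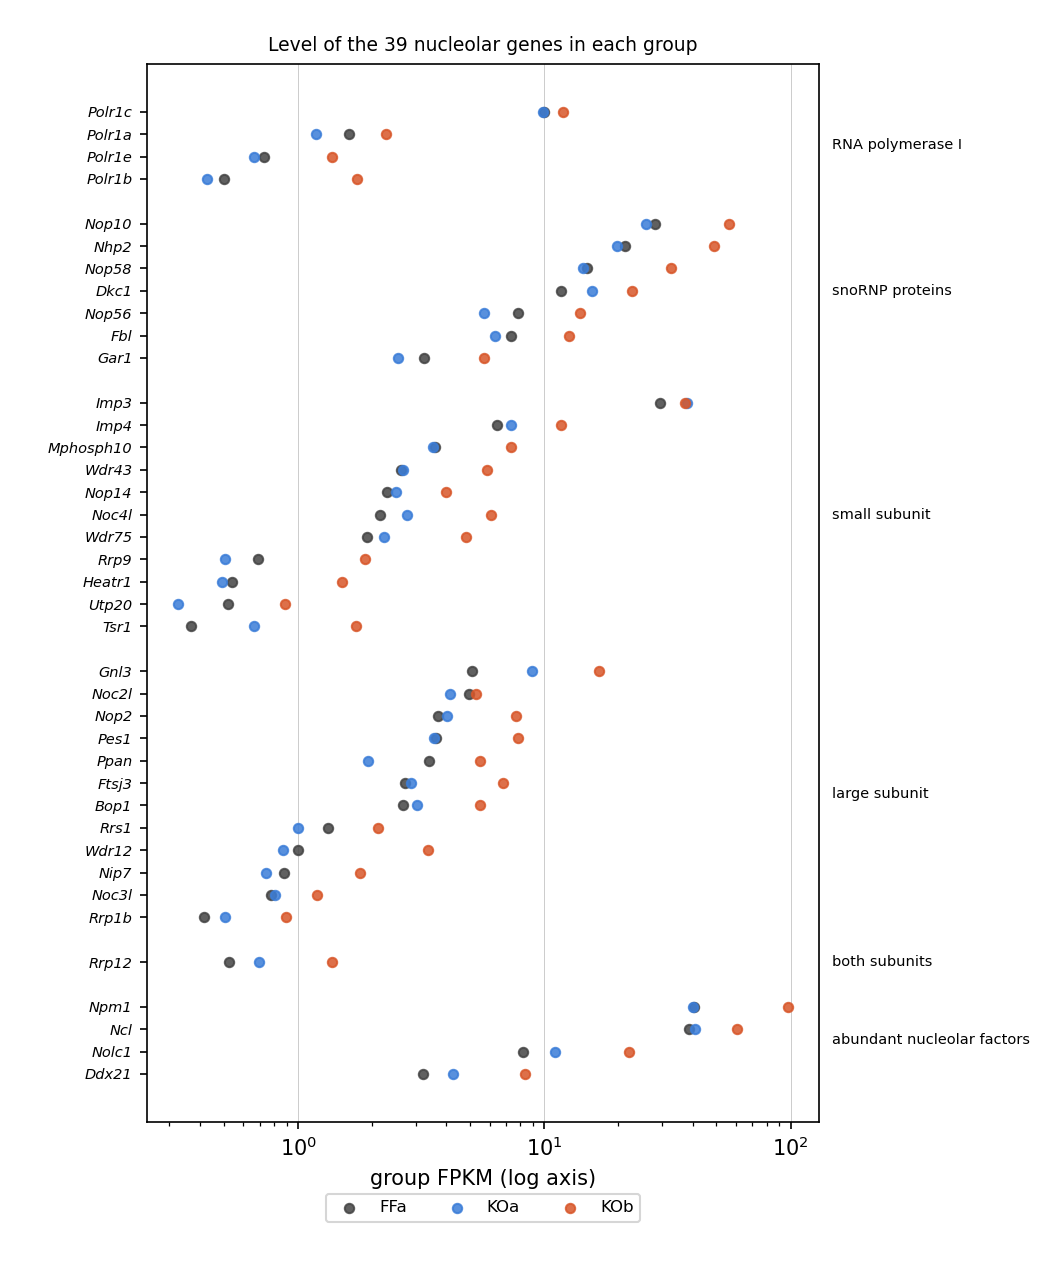
Group FPKM (log axis) of each of the 39 nucleolar genes in FFa, KOa and KOb, ordered by role and by the FFa level. Each point is the authors' pooled value for a group and has no error bar, since no values per library were used. KOb lies to the right of the other groups in 38 rows, and in Imp3 it overlaps KOa.

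KOa against FFa asks what changed in the mutant cells that passed the same gate as the control. Of the 39 genes, 0 rose and 1 fell, where 7.99% of all tested genes rose and 14.1% fell in the authors' deposited Cuffdiff test. At an unadjusted p below 0.05 there were 4 higher and 3 lower members. With the test statistic taken as a standard normal deviate, 0 members rose and 0 fell, against 2.52% and 4.96% of all genes. The median log2 ratio of the members was -0.02 (quartiles -0.23 and 0.22), beside -0.08 over all tested genes. A ratio above 0 was found in 18 members (43.5% of all genes) and a log2 ratio of at least 1 in 0 (6.95% of all genes). The median implied error was 0.40. A single gene could differ by more than that and not be called, as with Utp20 (-0.68 ± 0.48).

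Ppan was the member that fell in KOa. It encodes a large subunit assembly factor and was at 3.40, 1.92 and 5.46 FPKM in FFa, KOa and KOb. Its log2 ratio was -0.82 ± 0.43 in KOa (q = 0.0259) and 0.69 ± 0.36 in KOb (q = 0.0242) in the authors' deposited table, so the called changes had opposite signs. Ppan thus dipped in KOa and was highest in KOb. Both calls against FFa were lost when that statistic was taken as a standard normal deviate (q = 0.329 and 0.325). The highest ratios in KOa were those of Tsr1 (0.85 ± 0.78, q = 0.211) and Gnl3 (0.81 ± 0.63, q = 0.106), neither of which was called.

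KOb against FFa sets the severely deleted, TER119-negative cells against the control. In this comparison 31 of the 39 nucleolar genes rose and 0 fell, where 12.8% of all tested genes rose and 15.2% fell in the authors' deposited Cuffdiff test. At an unadjusted p below 0.05, 35 members were higher and 0 lower. All 39 ratios lay above 0 (49.1% of all genes), and 23 of 39 reached a log2 ratio of at least 1 (7.86% of all genes). The median log2 ratio was 1.04, a fold of 2.06, with quartiles of 0.78 and 1.36, beside a median of -0.01 over all tested genes. The smallest ratio was that of Noc2l (0.09) and the largest that of Tsr1 (2.22). Read as a standard normal, the statistic called 17 members higher (3.63% of all genes) and 0 lower.

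**Figure D2:**
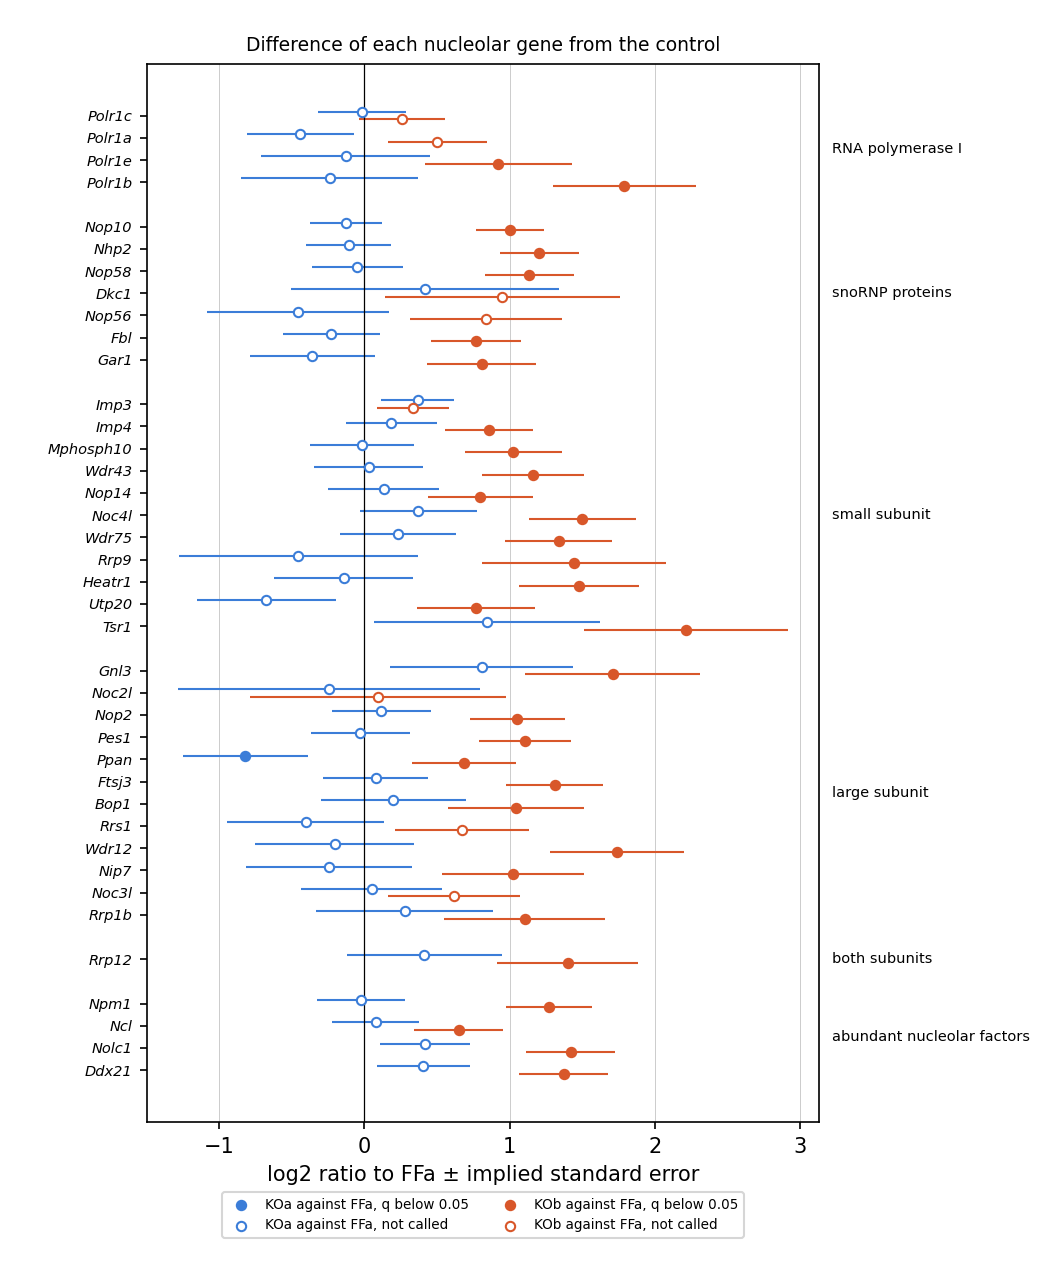
Log2 ratio to FFa (x axis) of each of the 39 nucleolar genes in KOa and KOb, with bars of 1 implied standard error to each side. Filled points have a deposited q below 0.05 and open points do not. Among KOa points only Ppan is filled, and among KOb points 31 are filled, all to the right of 0.

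Scaling matters for the size of these values but not for the gap to other genes. Dividing by the summed FPKM without globin genes adds 0.54 to every log2 ratio of KOa against FFa and 0.51 to every ratio of KOb against FFa, members and other genes alike. Relative to the median of all tested genes, the members' median was 0.06 higher in KOa and 1.06 higher in KOb under either scaling.

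RNA polymerase I was represented by 4 subunit genes, of which 2 rose in KOb. Polr1b, the gene of the second largest catalytic subunit, was at 0.502, 0.426 and 1.74 FPKM in FFa, KOa and KOb. Its ratio of 1.79 ± 0.49 in KOb (q = 0.000619 in the authors' deposited table) was the second largest of the set. Polr1e, the gene of an accessory subunit, rose by 0.92 ± 0.51, from 0.727 in FFa and 0.665 in KOa to 1.38 FPKM. Polr1a, the gene of the largest subunit, was at 1.61, 1.18 and 2.28 FPKM in FFa, KOa and KOb. Its ratio of 0.50 ± 0.34 in KOb missed the threshold (q = 0.0572), and it passed with q values adjusted within that comparison (q = 0.0456). Polr1c encodes a subunit that RNA polymerase III also uses, and it was nearly level at 9.96, 9.85 and 11.9 FPKM (0.26 ± 0.30, q = 0.382). The highest FPKM of the 4 genes was thus the one that differed least between groups, and the ratio of highest to lowest FPKM among them was 19.8 in FFa, 23.1 in KOa and 8.64 in KOb. The lowest gene was Polr1b in FFa and KOa but Polr1e in KOb, and the difference in this ratio was not tested.

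Of 7 snoRNP protein genes, 5 rose in KOb. Box H/ACA particles convert uridine to pseudouridine, and 3 of their 4 core genes rose. Nop10 was at 28.1 FPKM in FFa, 25.8 in KOa and 56.4 in KOb (log2 ratio of KOb to FFa 1.00 ± 0.23). Nhp2 was at 21.2, 19.7 and 48.9 FPKM (1.20 ± 0.27), and Gar1 was at 3.26, 2.54 and 5.71 FPKM (0.81 ± 0.38). The control and KOa lay close together in these genes, and KOb stood above both. Dkc1, the gene of the pseudouridine synthase dyskerin, had 11.7, 15.6 and 22.6 FPKM, but its ratio of 0.95 ± 0.81 was loosely determined and not called (q = 0.187). Dkc1 overlaps Mpp1 on the other strand, a gene at 132 FPKM in FFa and 91.6 in KOb, and whether strand was used in counting is not given. Whether reads of Mpp1 entered the Dkc1 value was not tested.

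Box C/D particles methylate the ribose of rRNA. Nop58, a core scaffold gene, was at 14.9, 14.4 and 32.7 FPKM in FFa, KOa and KOb and rose by 1.14 ± 0.31. Fbl, which encodes the methyltransferase fibrillarin, was at 7.35, 6.28 and 12.5 FPKM and rose by 0.77 ± 0.31. Nop56, the partner scaffold of Nop58, had 7.82, 5.70 and 14.0 FPKM and was not called against FFa (0.84 ± 0.53, q = 0.0771), although it was called against KOa (1.29 ± 0.55). The summed FPKM of these 3 genes was 30.1 in FFa, 26.4 in KOa and 59.3 in KOb.

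Of the small subunit processome and its late partners, 10 of 11 genes rose in KOb. The log2 ratios of all 11 ran from 0.34 in Imp3, which was not called, to 2.22. Tsr1, which encodes a factor of late small subunit maturation, was at 0.369 FPKM in FFa, 0.663 in KOa and 1.71 in KOb. It had the largest ratio of the set (2.22 ± 0.70), from a low control level, and it overlaps Srr on the other strand (0.995 FPKM in FFa). Noc4l was at 2.14, 2.77 and 6.07 FPKM (1.50 ± 0.37) and Heatr1, a processome scaffold that also supports polymerase I transcription, at 0.540, 0.490 and 1.51 FPKM (1.48 ± 0.41). Rrp9, the gene of a protein particular to the U3 snoRNP, was at 0.688, 0.503 and 1.87 FPKM (1.45 ± 0.64, q = 0.0191). Rrp9 was among the 14 calls lost when the statistic was taken as a normal deviate. The WD repeat genes Wdr75 (1.34 ± 0.37) and Wdr43 (1.16 ± 0.35) rose, as did Nop14 (0.80 ± 0.36) and Utp20 (0.77 ± 0.41). Utp20 was the lowest member in KOb, at 0.882 FPKM.

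Imp3, Imp4 and Mphosph10 encode a trimer of the processome that works on the U3 snoRNA, and 2 of the 3 were called in KOb. Imp3 was at 29.5, 38.0 and 37.2 FPKM in FFa, KOa and KOb. Its ratio was 0.37 ± 0.25 in KOa (q = 0.148) and 0.34 ± 0.25 in KOb (q = 0.191), and neither was called. Imp4 was at 6.44, 7.33 and 11.7 FPKM and rose by 0.86 ± 0.30 in KOb, and Mphosph10 at 3.58, 3.54 and 7.30 FPKM rose by 1.03 ± 0.33. Of the summed FPKM of the 3 genes, Imp3 made up 74.6%, 77.8% and 66.2% in FFa, KOa and KOb. The difference between Imp3 and its partners was not tested.

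Large subunit assembly genes rose in KOb in 9 of 12 cases. Pes1, Bop1 and Wdr12 encode the PeBoW complex, which is needed to process the large subunit rRNA. Pes1 was at 3.63, 3.56 and 7.81 FPKM in FFa, KOa and KOb (1.11 ± 0.32), and Bop1 at 2.66, 3.05 and 5.48 FPKM (1.04 ± 0.47). Wdr12 went from 1.00 in FFa and 0.870 in KOa to 3.36 FPKM (1.74 ± 0.46). All 3 subunits thus rose. The ratio of the highest to the lowest of them was 3.62 in FFa, 4.09 in KOa and 2.33 in KOb. Wdr12 was the lowest in each group, and the difference in this ratio was not tested.

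Gnl3, which encodes the nucleolar GTPase nucleostemin, rose by 1.71 ± 0.60, and its KOa level lay between the others (5.10, 8.93 and 16.7 FPKM in FFa, KOa and KOb). Ftsj3, an rRNA methyltransferase gene, rose by 1.31 ± 0.33 and Nop2, another one, by 1.05 ± 0.33. Rrp1b (1.10 ± 0.55), Nip7 (1.03 ± 0.49) and Ppan completed the rises. Not called were Rrs1 (0.67 ± 0.46, q = 0.0907), Noc3l (0.62 ± 0.46, q = 0.0944) and Noc2l (0.09 ± 0.88, q = 0.925). Noc2l was at 4.92, 4.15 and 5.25 FPKM and had the largest error of the set. It overlaps Samd11 on the other strand, listed at 58.4 FPKM in FFa and 37.7 in KOb. Whether reads of Samd11 entered the Noc2l value was not tested.

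The abundant nucleolar factors all rose in KOb, 4 of 4. Npm1, the gene of nucleophosmin, a histone chaperone that fills the granular part of the nucleolus, was at 40.6 FPKM in FFa, 40.0 in KOa and 98.0 in KOb (1.27 ± 0.30, q = 0.000619 in the authors' deposited table). Ncl, the gene of nucleolin, was at 38.7, 40.8 and 60.6 FPKM and rose by a smaller 0.65 ± 0.31 (q = 0.00248). Ncl and Gnl3 were among those lost calls as well (q = 0.245 and 0.0625). Nolc1, whose product links snoRNPs to polymerase I, rose by 1.42 ± 0.31, with 8.22, 11.0 and 22.04 FPKM in FFa, KOa and KOb. Ddx21, an RNA helicase gene, rose by 1.37 ± 0.31, with 3.22, 4.27 and 8.34 FPKM. Npm1 has processed pseudogenes elsewhere in the genome, so its split of reads is uncertain. Rrp12, a gene for the export of both subunits, rose by 1.40 ± 0.48, with 0.522, 0.695 and 1.38 FPKM.

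KOb against KOa compares the mutant populations, which share the genotype but differ in the gate and in the labelled degree of deletion. KOb was higher in 34 of 39 nucleolar genes and lower in 0, where 10.0% of all tested genes were higher and 6.19% lower in the authors' deposited Cuffdiff test. At an unadjusted p below 0.05, 35 members were higher and 0 lower. Ratios lay above 0 in 38 members (53.8% of all genes), 23 reached a log2 ratio of at least 1 (5.42% of all genes), and the median was 1.08 beside 0.05 over all tested genes. With the statistic taken as a normal deviate, 18 members were higher (1.91% of all genes). The largest ratios were those of Polr1b (2.03 ± 0.52), Wdr12 (1.95 ± 0.47), Rrp9 (1.90 ± 0.72), Heatr1 (1.62 ± 0.43) and Ppan (1.50 ± 0.41). Dkc1, Imp3, Noc2l, Noc3l and Polr1c were not called. This comparison shares the KOb libraries with the one before, so the similar medians are not separate evidence.

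**Figure D3:**
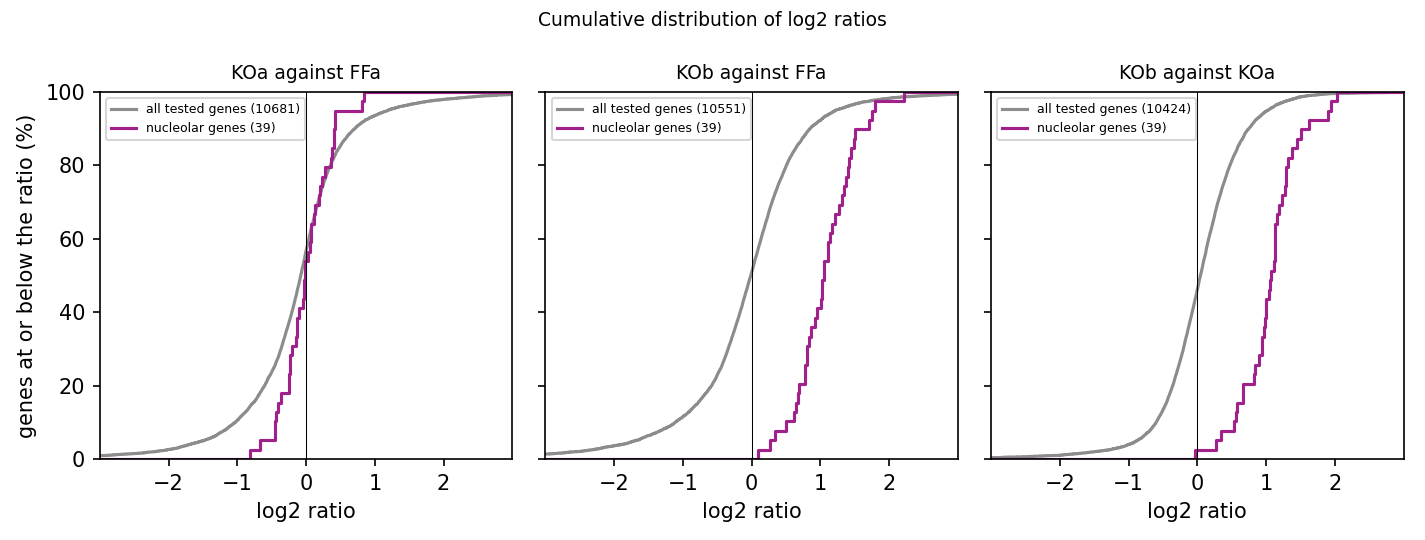
Cumulative share of genes (y axis, percent) at or below each log2 ratio (x axis, shown from -3 to 3) for the 39 nucleolar genes and for all tested genes with a finite ratio. In KOa against FFa the curves cross, with medians of -0.02 and -0.08. In both comparisons of KOb the nucleolar curve is shifted to the right, with medians of 1.04 and 1.08 beside -0.01 and 0.05.

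The response was spread over low and high genes. The 10 members under 1 FPKM in FFa had a median log2 ratio of 1.25 in KOb, with 9 called. The 16 members from 1 to 5 FPKM had a median of 1.05, with 13 called, and the 13 members at 5 FPKM or more a median of 0.95, with 9 called. The median implied error fell from 0.49 to 0.36 and 0.31 over these classes, so ratios of the low genes are less certain. The ratios of the 39 members had an SD of 0.44 in KOb against FFa, beside a median implied error of 0.37.

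The members lie on 17 chromosomes of mm10, and the locus given for each overlapped the GENCODE M21 gene of that name. Tsr1, for example, spans chr11:74898071-74909342, Polr1b chr2:129100995-129126594 and Npm1 chr11:33152287-33163206. In this annotation 13 members overlap another protein-coding gene, in each case on the opposite strand. Among the 26 members without such an overlap, 21 rose in KOb, with a median log2 ratio of 1.01. Of the 13 with an overlap, 10 rose, with a median of 1.11. Tsr1, Heatr1, Rrp9, Gnl3, Nop56 and Polr1e are among these, each below its partner in FFa. Those partners were Srr (0.995 FPKM), Lgals8 (4.13), Parp3 (1.49), Pbrm1 (12.3), Idh3b (20.4) and Fbxo10 (0.833). Nhp2, Wdr12 and Rrp1b stood above theirs. Whether reads of the partners entered the members' values was not tested. The introns of nucleolar protein genes often house snoRNAs, and 8 members hold 23 annotated snoRNA genes between them. Nop56, Nop58, Ncl and Gnl3 are among these hosts.

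Promoters were read for the E-box CACGTG, to which MYC, a known activator of ribosome biogenesis genes, binds with MAX. The motif is its own reverse complement, so a single search covers both strands. RefSeq promoters of GRCm38.p6 matched 34 of the 39 members, and Bop1, Fbl, Npm1, Rrp12 and Rrs1 had none. In the 250 bases before the start, the motif was found in 2 of the members' 38 promoters (5.26%), beside 6.02% of all 32851 promoters. It was in 8.72% of promoters of genes that reached 1 FPKM, and in 11.9% of promoters of genes called higher in KOb against FFa. Both members with a match, Imp4 and Nop2, rose in KOb, as did 25 of the 32 without one. Their last 150 bases before the start are given with the motif in capitals, beside those of Imp3, the partner of Imp4 that was not called. They are Imp4 (plus strand, chr1:34439679-34439828), Nop2 (plus strand, chr6:125131733-125131882) and Imp3 (plus strand, chr9:56937350-56937499).
Imp4: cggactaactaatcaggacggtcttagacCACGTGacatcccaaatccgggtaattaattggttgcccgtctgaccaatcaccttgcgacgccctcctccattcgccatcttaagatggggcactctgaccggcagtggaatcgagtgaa
Nop2: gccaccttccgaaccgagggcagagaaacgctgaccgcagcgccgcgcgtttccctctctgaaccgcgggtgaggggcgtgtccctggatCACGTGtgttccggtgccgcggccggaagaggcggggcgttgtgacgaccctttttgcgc
Imp3: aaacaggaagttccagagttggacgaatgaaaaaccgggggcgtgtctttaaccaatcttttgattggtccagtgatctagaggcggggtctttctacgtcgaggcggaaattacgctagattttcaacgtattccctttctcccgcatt
The motif begins 121 bases before the start in Imp4 and 60 bases before it in Nop2. These are matches of letters, not shown binding, and no match says only that the letters are absent from the window.

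Other genes of the same pathway were taken from lists of 136 genes in 5 groups. Of the 134 found in the table and tested in KOb against FFa, 70 rose and 0 fell (12.8% and 15.2% of all genes), with a median log2 ratio of 0.74 and 125 ratios above 0. In KOa against FFa 5 rose and 2 fell of 129 tested, with a median of 0.07, and these shares of 3.88% and 1.55% lay below the 7.99% and 14.1% of all genes. In KOb against KOa 62 rose and 0 fell of 134 (10.0% and 6.19% of all genes).

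Small subunit processing genes rose in KOb in 28 of 45 tested. Pno1, which encodes a factor of late small subunit maturation, was at 3.57, 3.97 and 12.0 FPKM in FFa, KOa and KOb (1.76 ± 0.34). Wdr36 (1.48 ± 0.43) and the helicase gene Ddx10 (1.43 ± 0.40) followed. In KOa the small subunit gene Rrp7a fell by 0.98 ± 0.48. Large subunit processing genes rose in KOb in 30 of 50 tested, led by Nle1 (2.17 ± 0.70), Nol8 (1.70 ± 0.43) and Nop16 (1.53 ± 0.46). Nle1 started from only 0.440 FPKM in FFa. In KOa, 3 of 48 large subunit genes rose (6.25%, beside 7.99% of all genes): Mrto4 (0.93 ± 0.31), Spata5 (0.92 ± 0.45) and Gnl2 (0.87 ± 0.32).

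Genes of snoRNP assembly rose in KOb in 4 of 10, among them Naf1 (1.21 ± 0.47), which loads the H/ACA core. RNA exosome genes and their cofactors, which trim the ends of pre-rRNA, rose in 6 of 17, with Nol12 at 0.95 ± 0.33 and C1d at 0.86 ± 0.31. The wider polymerase I machinery rose in 2 of 12 against FFa, near the 12.8% of all genes. Against KOa, 5 of the 12 were higher in KOb (41.7%, beside 10.0% of all genes). The 2 that rose against FFa were Cd3eap (1.36 ± 0.50), a polymerase I subunit gene, and Rrn3 (1.01 ± 0.31), which recruits the polymerase to the rDNA promoter. Ubtf, the gene of the rDNA chromatin factor UBF, was at 23.3, 18.2 and 17.7 FPKM in FFa, KOa and KOb and was not called in KOb (-0.40 ± 0.30, q = 0.0775). Polr1d, like Polr1c a subunit shared with polymerase III, was at 32.2, 34.6 and 42.3 FPKM and was not called either (0.40 ± 0.32).

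**Figure D4:**
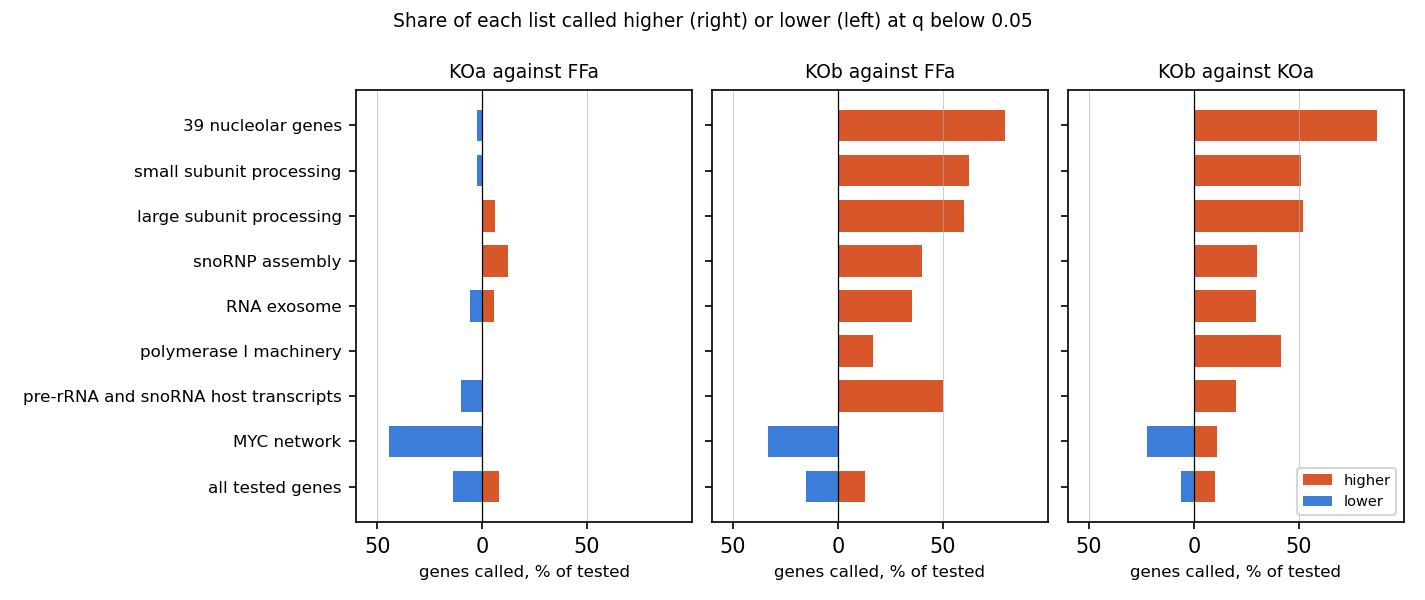
Percent of tested genes called higher (right of 0) or lower (left of 0) at a deposited q below 0.05, for the 39 nucleolar genes, the wider pathway lists and all tested genes, in each comparison. In KOb against FFa, 79.5% of the nucleolar genes are higher beside 12.8% of all genes. In KOa against FFa no biogenesis list has more than 3 genes called in a direction.

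Myc, the gene of the E-box factor MYC, was at 12.8 FPKM in FFa, 6.20 in KOa and 13.5 in KOb. Against FFa it fell by 1.05 ± 0.32 in KOa and was at 0.07 ± 0.31 in KOb (q = 0.824 in the authors' deposited table), and between KOa and KOb it rose by 1.12 ± 0.33. KOa was thus the lowest group for Myc. The median log2 ratio of the nucleolar genes against FFa was -0.02 in KOa and 1.04 in KOb. The part of Myc in their levels was not tested. Among genes of the MAX-binding antagonists, Mxd3 was at 61.8, 41.5 and 28.3 FPKM and fell by 0.57 ± 0.33 in KOa and by 1.13 ± 0.38 in KOb. Mxd4 fell by 1.59 ± 0.67 and by 2.08 ± 0.75, and Mxi1 fell by 0.73 ± 0.30 in KOb. Of 9 tested MYC network genes, 0 rose and 4 fell in KOa (7.99% and 14.1% of all genes). In KOb 0 rose and 3 fell (12.8% and 15.2% of all genes).

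The pre-rRNA transcript Rn45s was listed at 10735 FPKM in FFa, 6331 in KOa and 5059 in KOb, with a log2 ratio of -1.09 ± 1.07 in KOb (q = 0.240 in the authors' deposited table). The direction was opposite to that of the nucleolar genes, and the ratio was not called. The rDNA copies are near-identical, so this value is uncertain. Whether its reads came from pre-rRNA or from mature rRNA left in the libraries was not tested. Of 10 snoRNA host and pre-rRNA transcripts tested, 5 rose in KOb (12.8% of all genes), and all 5 are snoRNA hosts. Snhg4 was at 1.67, 2.30 and 6.36 FPKM (1.93 ± 0.55), Snhg5 rose by 0.79 ± 0.26 and Gas5 by 0.72 ± 0.29. Snhg1 was level at 168, 163 and 179 FPKM.

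Structural proteins of the ribosome, taken by a symbol rule after values were known, were counted in the same way. Of 77 cytosolic ribosomal protein genes, 7 rose and 4 fell in KOb against FFa (9.09% and 5.19%, beside 12.8% and 15.2% of all genes), with a median log2 ratio of 0.09. In KOa 5 rose and 18 fell (6.49% and 23.4%, beside 7.99% and 14.1%), with a median of -0.23. In KOb against KOa 25 rose and 2 fell (32.5% and 2.60%, beside 10.0% and 6.19%), with a median of 0.26. Many of these genes have near-identical copies, so single values are uncertain. Of 76 mitochondrial ribosomal protein genes, 25 rose and 2 fell in KOb against FFa (32.9% and 2.63%), with a median of 0.45. The difference between these lists and the nucleolar genes was not tested.

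Maturation and progenitor markers moved in KOb beside the nucleolar genes, and some were already called in KOa. Kit, the stem cell factor receptor of early erythroid progenitors, was at 0.399, 0.751 and 2.36 FPKM in FFa, KOa and KOb. It rose against FFa by 0.91 ± 0.54 in KOa and by 2.57 ± 0.50 in KOb. Of 12 tested early progenitor markers, 4 rose and 2 fell in KOb (12.8% and 15.2% of all genes). In KOa 2 of 11 tested rose and 2 fell (7.99% and 14.1% of all genes). The summed FPKM of the 14 listed was 351 in FFa, 350 in KOa and 289 in KOb. Most of that sum was Lmo2, at 312, 318 and 249 FPKM, which was not called in KOb. Besides Kit, the risers in KOb were Cd34 (0.133, 0.609 and 0.887 FPKM), Meis1 (0.108, 0.412 and 0.589) and Angpt1 (0.112, 0.367 and 0.466), all below 1 FPKM in each group. Those that fell in KOb were Cd33 and Sox4. In KOa the risers were Kit and Angpt1, and Myb and Sox4 fell. The part of the maturation stage in the rise of the nucleolar genes was not tested, and in KOb it cannot be told apart from the degree of deletion. Between KOa and KOb, 4 of 13 tested macrophage markers fell (6.19% of all genes), with a median log2 ratio of -0.60. So did 1 of 15 granulocyte markers and 0 of 11 B cell markers. The part of these cells in the nucleolar values was not tested.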

How the data were processed

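RNA of sorted cells was made into libraries with a NuGEN Encore Complete kit after column purification with DNase, per the labels' protocols. Cuffdiff 2.1.1, TopHat2 2.0.8b and Bowtie2 2.1.0 are named with build mm10, per the submitters' processing notes. Not given in the sources used here are the annotation, the filters, the library scaling and whether strand was used. The authors deposited FPKM values, 1 per gene and group, the log2 ratio without a pseudocount, a score (the test statistic), and a p-value and q-value. The deposited q equals a Benjamini-Hochberg adjustment over the 31813 tested results of the 3 comparisons, within 5.27e-07. No value per library was used.

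Calls use a deposited q below 0.05. Folds, medians, counts and implied standard errors (the log2 ratio divided by the statistic) were computed here with Python 3.11.15, pandas 2.3.3 and scipy 1.17.1. Simulated data were used to test the p-value adjustment, the normal reading of a statistic and the arithmetic of the implied error. Whether that error suits the deposited statistic was not tested. Members and lists were chosen with earlier results of these data known. All members may be named. Full values are given for up to 2 of highest FFa FPKM per role and the 5 largest called rises and falls per comparison, and for others as the roles required. From each wider list up to 3 called genes of largest change were eligible, and those named beyond it (Ubtf, Polr1d, Snhg1, Rn45s and markers) were chosen after their values were seen. Lists not described so far, with counts for KOb against FFa: macrophage markers rose in 0 and fell in 14 of 14, megakaryocyte markers rose in 3 and fell in 2 of 7, and T and NK cell markers rose in 1 and fell in 5 of 9. Of all tested genes, 12.8% rose and 15.2% fell there.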

Additional observations from a re-analysis of the deposited data

Results flagged for a closer look

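Ppan, the large subunit assembly gene, fell in KOa and rose in KOb against the same control. The difference between the mutant groups was itself called, with a log2 ratio of KOb to KOa of 1.50 ± 0.41 (q = 0.000619 in the authors' deposited table). That call does not set Ppan apart, since 34 of the 39 members were called higher in KOb than in KOa. Both Ppan calls against FFa were lost at a deposited q below 0.01 and with the statistic taken as a standard normal deviate (q = 0.329 and 0.325). The groups differ in the sort gate as well as in the labelled degree of deletion.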

How the results depend on the processing

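The counts of members called depend most on how the deposited statistic is read. As a standard normal it gave 17 members higher when KOb was set against FFa and 18 when it was set against KOa (31 and 34 with the deposited q), and 0 lower in KOa against FFa, where the deposited q gave 1. With a q below 0.01 that count was 0 as well. Dividing by the summed FPKM without globin genes moved the members' median log2 ratio to 0.52 in KOa against FFa and 1.55 in KOb against FFa, by the shift of all genes. Under the other settings (q within each comparison, an FPKM of at least 1, a log2 ratio of at least 0.5, a q below 0.01) 25 to 32 members were higher against FFa and 28 to 34 against KOa. The medians in the comparisons of KOb stayed between 0.77 and 1.25 under the other scalings, pseudocounts and subsets. The setting without members that overlap another coding gene was chosen after seeing the data. No paired analysis was possible because the table holds 1 value per group, and for the same reason no library was left out. The unknown depth limits what can be said of members below 1 FPKM.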
